A study of Homo sapiens with 8 samples.

Results

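Integrins are heterodimers of an alpha and a beta chain that bind the extracellular matrix outside the cell and, through their cytoplasmic tails, the actin cytoskeleton inside it. Talins and kindlins bind the beta tail and switch the receptor on, the complex of ILK, PINCH and parvin and the linkers vinculin and tensin tie it to actin, and FAK, paxillin and p130Cas pass the signal on. In the kidney, podocytes hold on to the glomerular basement membrane mainly through the integrin of the alpha 3 and beta 1 chains, which binds laminin, and matrix adhesion is among the inputs known to control the Hippo pathway, in which the kinase LATS2 phosphorylates YAP and keeps it out of the nucleus.

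The integrin and focal adhesion core described here comprised every row of the deposited gene table that carried the symbol of an integrin alpha or beta chain or of a tensin, talin, kindlin, PINCH or parvin, or of vinculin, paxillin, ILK, FAK or p130Cas. The rule went by gene symbol and contained no measured value. It took 45 genes in 47 of the 29004 table rows, since ITGA6 and TLN2 had 2 rows each. Poly(A)-selected RNA was sequenced from the immortalized human podocyte line AB8/13, in 4 samples labelled LATS2 OE and 4 samples left untreated. LATS2 OE cells had been given doxycycline at 125 ng/mL for 8 h to switch on wild-type LATS2 from a lentiviral inducible construct, and untreated cells of the inducible line received none. Doxycycline and the construct therefore changed together, and their parts cannot be told apart. The line is immortalized and was grown on plastic at the temperature at which it proliferates.

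The table gave 1 pooled value per group, in FPKM (fragments counted relative to transcript length and library size), so every value below is that of a pool of 4 samples without an SD. No test over samples could be made, and no value per sample can be shown. The depth behind the values is unknown. A row was counted as past the threshold at 1.3-fold or more in either direction, a description of size only, among the 12218 rows of at least 1 FPKM in both groups. For most rows of at least 1 FPKM the decimal point had been displaced in the table before deposit, so that the ratio of the 2 groups was known while the level was open by powers of 10. Where levels are given for such a row, all possible pairs are listed.

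The targeted gene was checked first. LATS2 (hg19, chr13:21547173-21635722) was 20.1-fold higher in LATS2 OE than in untreated cells (log2 ratio 4.33), a value that counts reads of the construct and of the endogenous gene together. Of 11 known YAP/TAZ target genes, 10 were lower in LATS2 OE cells by 1.3-fold or more, against 3.91% of all 12218 rows. The largest differences were those of CTGF, ANKRD1, EDN1, AMOTL2, CYR61 and F3, with log2 ratios of -2.34, -2.15, -2.08, -1.71, -1.35 and -1.34. AXL had a log2 ratio of -0.25. This list was chosen with earlier results of these data known. The cell type label was only partly borne out by markers. Of 13 podocyte markers, 5 reached 1 FPKM in both groups, namely KIRREL, VIM, SYNPO, CD2AP and PODXL, whereas NPHS1, which encodes the slit diaphragm protein nephrin, had 0.00616 FPKM in LATS2 OE and 0.00875 FPKM in untreated cells. Endothelial markers stayed below 1 FPKM in 8 of 8 genes, with a summed level of 0.350 FPKM in LATS2 OE and 0.306 FPKM in untreated cells. Of 8 leukocyte markers only CD68 reached 1 FPKM in both groups (log2 ratio 0.12), PTPRC had 0.00360 FPKM in LATS2 OE and 0.00234 FPKM in untreated cells, and TYROBP was listed at 0 in both. Of 7 mesangial and stromal markers 2 reached 1 FPKM, ACTA2 with a log2 ratio of 0.21 and PDGFRB with one of -0.19. Of 8 tubular and parietal epithelial markers 2 did so, PAX2 with a log2 ratio of 0.13 and the tight junction gene CLDN1 with one of -0.51.

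Most of the adhesion core differed little between the groups after 8 h. Of the 47 rows, 34 rows of 32 genes had at least 1 FPKM in both groups, 11 were below 1 FPKM in both, and ITGA8 and ITGAD were listed at 0 in both. Of the 34 rows, 25 (73.5%) lay within 1.1-fold of equality, against 71.2% of all rows of at least 1 FPKM. The median log2 ratio was 0.02 over the 34 rows (interquartile range -0.05 to 0.08) and -0.004147 over all 12218 rows (interquartile range -0.08 to 0.07). Of the 34 rows, 20 were above and 14 below equality, and of all 12218 rows 5915 were above and 6303 below. Past 1.3-fold there were 3 of 34 rows (8.82%), against 7.20% of all rows. By direction, 2 of 34 (5.88%) were higher in LATS2 OE cells, namely ITGA2 and TNS1, against 3.29% of all rows, and 1 of 34 (2.94%), ITGB8, was lower, against 3.91%. The share past 1.3-fold was thus close to that of the whole table. ITGB8 was also the only one of the 34 rows past 2-fold, and 0.565% of all rows were lower by 2-fold or more.

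**Figure D1:**
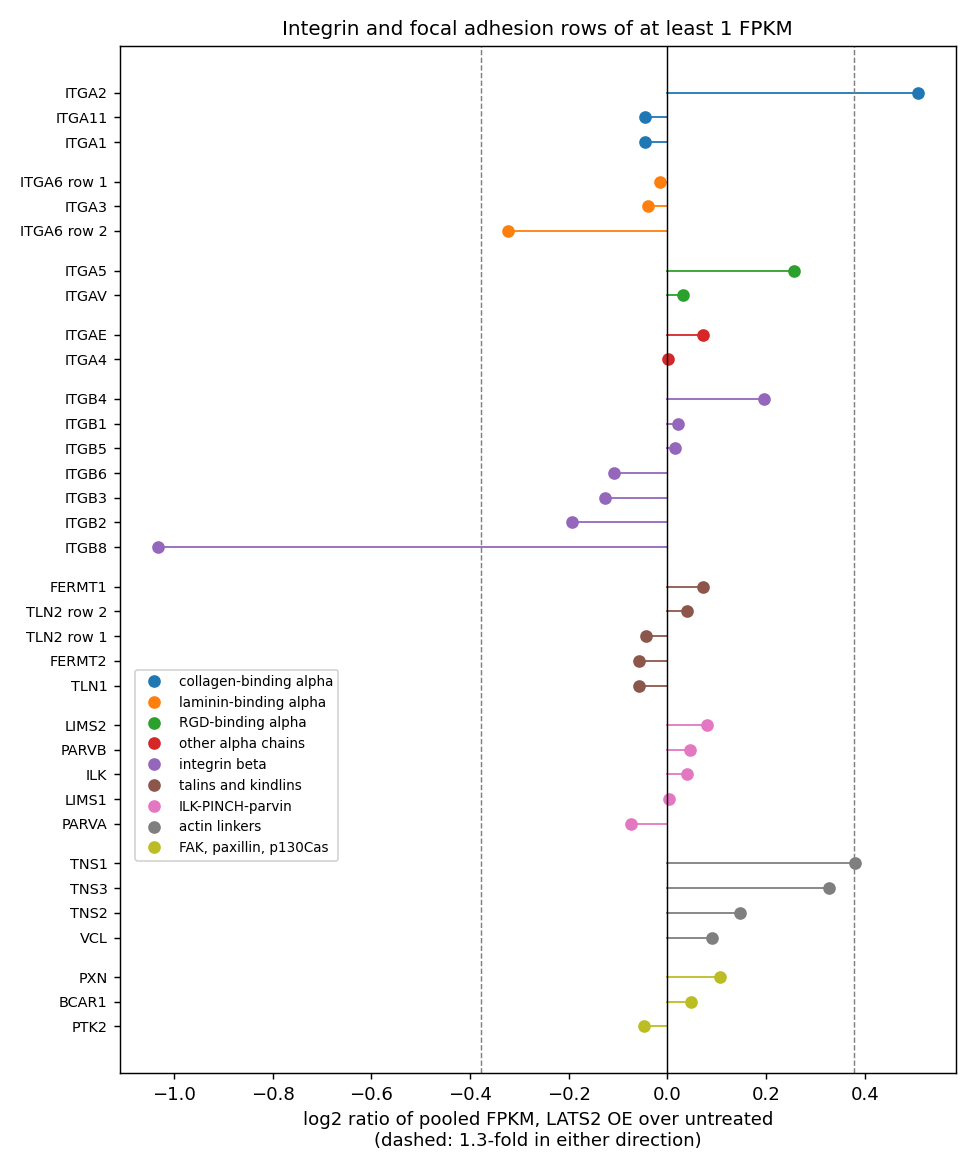
Log2 ratio of the pooled FPKM value in LATS2 OE cells over that in untreated cells (horizontal axis) for each of the 34 rows of at least 1 FPKM in both groups, coloured by the role of the gene; dashed lines mark 1.3-fold. ITGB8 stands at -1.03, ITGA2 at 0.51 and TNS1 at 0.38, just on the line, and 25 of 34 rows lie within 1.1-fold of equality.

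Among the beta chains, ITGB8 was lower in LATS2 OE cells. Its product pairs only with the alpha V chain, and this integrin is known for binding latent TGF-beta and helping to release the active form. ITGB8 in LATS2 OE cells was at 48.9% of its untreated value (log2 ratio -1.03). The possible levels were 433 FPKM in LATS2 OE against 885 FPKM in untreated cells, 43.3 against 88.5 FPKM, or 4.33 against 8.85 FPKM. Of the 12218 rows, 62 (0.507%) had a ratio as low or lower. The ITGB8 locus of the table lay at chr7:20367924-20455382 (hg19, plus strand). ITGB8-AS1 is annotated on the opposite strand and the library kit did not mark strand, so reads where both overlap cannot be told apart by strand. A second row of the same span, LOC101927811, had 0.467 FPKM in LATS2 OE and 0.784 FPKM in untreated cells. In the order of rows it stood between MACC1 and SP8, apart from the ITGB8 row. It can therefore hold the antisense transcripts of this span, which was not tested.

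The window of 250 bases before the RefSeq start of ITGB8 is shown because among the 34 rows this gene had the largest difference (GRCh38.p14, chr7:20330650-20330899, plus strand, 5′ to 3′). It was searched on both strands for GGAATG, the letters bound by the TEAD factors through which YAP acts, and for TGANTCA, the letters bound by AP-1. Neither was found, so no letters are in capitals.
ITGB8: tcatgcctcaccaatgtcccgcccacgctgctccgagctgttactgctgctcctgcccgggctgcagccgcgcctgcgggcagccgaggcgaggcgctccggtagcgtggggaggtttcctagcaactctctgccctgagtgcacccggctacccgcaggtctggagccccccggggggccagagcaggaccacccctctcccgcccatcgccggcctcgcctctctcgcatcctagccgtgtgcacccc

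The other beta chains lay closer to equality. ITGB1, the partner of most matrix-binding alpha chains, had a log2 ratio of 0.02, and ITGB5, a partner of alpha V, also had one of 0.02. ITGB3, which with alpha V binds vitronectin and fibronectin, had a log2 ratio of -0.13, and ITGB6, another alpha V partner known for TGF-beta release in epithelia, had one of -0.11. The table loci of ITGB1 and ITGB6 were 0.49 and 1.53 times as long as the annotated genes. The alpha V chain itself (ITGAV) had a log2 ratio of 0.03. ITGB8 was thus the only one of the 5 measured alpha V partners past 1.3-fold, and the difference between it and the others could not be tested. ITGB4, the hemidesmosome chain that pairs with alpha 6, had a log2 ratio of 0.20. The leukocyte beta chain ITGB2 had a log2 ratio of -0.19, with ITGB2-AS1 on its opposite strand, and ITGB7, another chain of lymphocytes, was below 1 FPKM with 0.240 FPKM in LATS2 OE and 0.191 FPKM in untreated cells.

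Among the collagen-binding alpha chains, ITGA2 was higher in LATS2 OE cells, whereas ITGA1 and ITGA11 were near equality. ITGA2 encodes the alpha chain of the collagen receptor of platelets and epithelia. Its value in LATS2 OE cells was 1.42-fold that in untreated cells (log2 ratio 0.51), with possible levels of 24.8 FPKM in LATS2 OE against 17.5 FPKM in untreated cells, or 2.48 against 1.75 FPKM. Of all rows, 1.76% had a ratio as high or higher. ITGA2-AS1 is annotated on the opposite strand, and its reads cannot be told apart from those of ITGA2. ITGA1 lies 32.7 kb from ITGA2 on the same chromosome and also encodes a collagen receptor chain. Its row, which carried the name of PELO as well, had a log2 ratio of -0.05. ITGA11, a chain of fibroblasts that binds fibrillar collagen, likewise had a log2 ratio of -0.05. ITGA10 was low, with 0.0795 FPKM in LATS2 OE and 0.0644 FPKM in untreated cells, and its table locus was far longer than the annotated gene, so that other transcripts can be part of its value.

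The corresponding window of ITGA2, shown because its ratio was the highest of the 34 rows (RefSeq, GRCh38.p14, chr5:52989102-52989351, plus strand), likewise held neither set of letters. The table locus of ITGA2 was chr5:52285125-52391300 in hg19.
ITGA2: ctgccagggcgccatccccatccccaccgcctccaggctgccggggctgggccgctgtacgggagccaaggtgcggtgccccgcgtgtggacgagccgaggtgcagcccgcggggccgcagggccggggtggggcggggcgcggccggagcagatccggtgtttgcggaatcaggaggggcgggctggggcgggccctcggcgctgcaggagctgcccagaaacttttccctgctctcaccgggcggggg

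Among rows of at least 1 FPKM, the laminin-binding alpha chains were close to equality in all but 1 of 2 rows named ITGA6. ITGA3, the podocyte laminin receptor chain, had a log2 ratio of -0.04, with possible levels of 258 FPKM in LATS2 OE against 265 FPKM in untreated cells, 25.8 against 26.5 FPKM, or 2.58 against 2.65 FPKM. ITGA6, whose product also binds laminin, had 2 rows of identical span with log2 ratios of -0.02 and -0.32. The second of these, 1.25-fold lower in LATS2 OE cells, was just short of the threshold. No source used here says how reads were divided between the 2 rows, and ITGA6-AS1 lies on the opposite strand. ITGA6 itself is on the plus strand. By its locus number the second row stood between ITGB6 and TNS1, minus-strand genes of the same chromosome. It can therefore hold antisense transcripts in place of ITGA6, which was not tested. ITGA7, a laminin receptor chain of muscle, had 0.470 FPKM in LATS2 OE and 0.400 FPKM in untreated cells.

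The fibronectin receptor chain ITGA5 had a log2 ratio of 0.26 and, at 1.19-fold, fell short of the threshold. Its table locus was 5.00 times as long as the annotated gene. Among the remaining alpha chains above 1 FPKM, ITGAE, the E-cadherin receptor chain of intraepithelial lymphocytes, had a log2 ratio of 0.07. ITGA4, which binds VCAM1 and fibronectin, had 1.00 times its untreated value, the closest to equality of the 34 rows. The table locus of ITGA4 was 2.45 times as long as the annotated gene, and CERKL lies on the opposite strand.

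The other alpha chains, several of them typical of leukocytes and platelets, were below 0.1 FPKM in both groups. ITGAL, the alpha chain of LFA-1, had 0.000992 FPKM in LATS2 OE and 0.00569 FPKM in untreated cells. ITGAM had 0.0159 FPKM in LATS2 OE and 0.00362 FPKM in untreated cells, and ITGAX had 0.00697 FPKM in LATS2 OE and 0.00569 FPKM in untreated cells. These values are too low for their ratios to be read, and no fold is given. The platelet chain ITGA2B had 0.0880 FPKM in LATS2 OE and 0.0802 FPKM in untreated cells. ITGA9, which binds tenascin C, had 0.00246 FPKM in LATS2 OE and 0.0153 FPKM in untreated cells. ITGA8, the nephronectin receptor chain that in the glomerulus marks mesangial cells, and the leukocyte chain ITGAD were listed at 0 in both groups.

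**Figure D2:**
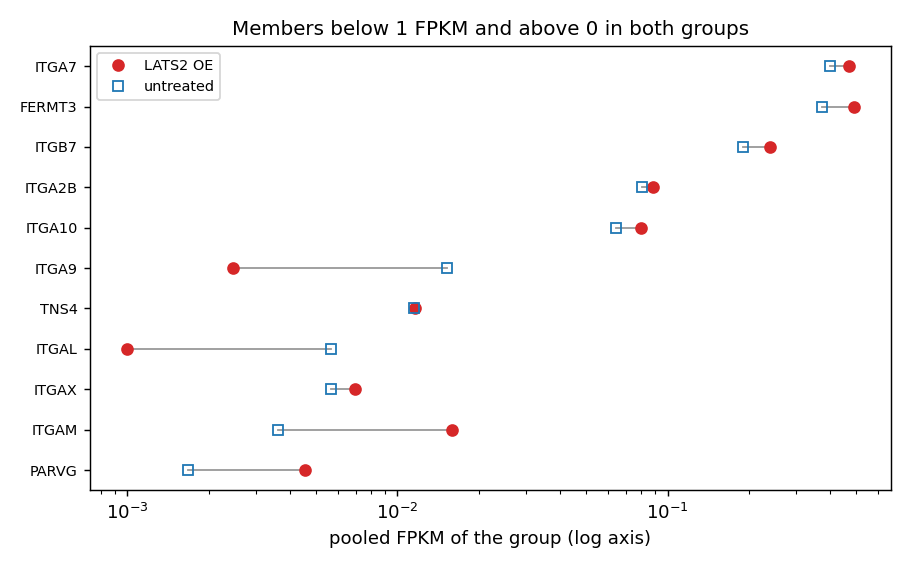
Pooled FPKM values on a log axis of the 11 members that were below 1 FPKM and above 0 in both groups, with filled circles for LATS2 OE cells and open squares for untreated cells. ITGA7 and FERMT3 are the highest, at 0.470 and 0.491 FPKM in LATS2 OE cells against 0.400 and 0.374 FPKM in untreated cells, and 6 members lie below 0.02 FPKM in both groups.

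The intracellular activators of integrins showed small differences. The talins and kindlins above 1 FPKM had log2 ratios from -0.06 to 0.07. TLN1 and FERMT2 both stood at -0.06, and FERMT1, the kindlin of epithelia, at 0.07. The table locus of TLN1 was 1.47 times as long as the annotated gene. TLN2, like ITGA6, had 2 rows of identical span, here with log2 ratios of -0.04 and 0.04. The locus number of the second was close to that of ITGA11, a minus-strand gene, whereas TLN2 is on the plus strand. This row too can hold antisense transcripts, which was not tested. FERMT3, the kindlin of blood cells, had 0.491 FPKM in LATS2 OE and 0.374 FPKM in untreated cells.

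The complex of ILK, PINCH and parvin, whose loss is known to harm podocytes in mice, was likewise near equality. ILK had a log2 ratio of 0.04, the PINCH genes LIMS1 and LIMS2 had log2 ratios of 0.003426 and 0.08, PARVA had one of -0.07 and PARVB one of 0.05. The 5 values span -0.07 to 0.08. PARVG, the parvin of blood cells, had 0.00456 FPKM in LATS2 OE and 0.00167 FPKM in untreated cells. The signalling members lay in a similar range, with log2 ratios of 0.11 for paxillin (PXN), 0.05 for p130Cas (BCAR1) and -0.05 for FAK (PTK2).

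All 4 actin linkers above 1 FPKM, all but VCL being tensins, had ratios above equality, with a median log2 ratio of 0.24. Of all 12218 rows, 5915 were above equality, and so few linkers are read as no result about the group. TNS1 passed the threshold barely, at 1.302-fold (log2 ratio 0.38). Tensin 1 binds beta 1 tails and actin and marks fibrillar adhesions. The possible levels of TNS1 were 307 FPKM in LATS2 OE against 236 FPKM in untreated cells, 30.7 against 23.6 FPKM, or 3.07 against 2.36 FPKM. Of all rows, 3.23% had a ratio as high or higher, and TNS1-AS1 is annotated on the opposite strand. At a threshold of 1.4-fold, which was chosen after the value of TNS1 was seen, TNS1 was no longer counted. TNS3, another tensin, was just short of the threshold at 1.255-fold (log2 ratio 0.33). It was the only member of at least 1 FPKM with a settled level, 13.0 FPKM in LATS2 OE and 10.3 FPKM in untreated cells. TNS2, a tensin needed for the glomerular filter in mice, had a log2 ratio of 0.15 and a table locus 2.08 times the length of the gene, and vinculin (VCL), which reinforces the talin to actin link under tension, had a log2 ratio of 0.09. TNS4 was low, with 0.0116 FPKM in LATS2 OE and 0.0115 FPKM in untreated cells.

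TNS1 (hg19 table locus chr2:218664405-218830692, minus strand) has 5 annotated start windows in RefSeq, of which 2 held GGAATG once each. They are shown because TNS1 alone of the members past 1.3-fold held these letters, with 5 windows searched against 1 each for ITGB8 and ITGA2. The capitals mark GGAATG, or CATTCC where the letters lie on the opposite strand, in windows at chr2:217920237-217920486 and chr2:217944071-217944320 (GRCh38.p14, minus strand). Both windows lie inside the gene, downstream of another annotated TNS1 start, whose window at chr2:218010276-218010525 held neither set of letters.
TNS1 window A: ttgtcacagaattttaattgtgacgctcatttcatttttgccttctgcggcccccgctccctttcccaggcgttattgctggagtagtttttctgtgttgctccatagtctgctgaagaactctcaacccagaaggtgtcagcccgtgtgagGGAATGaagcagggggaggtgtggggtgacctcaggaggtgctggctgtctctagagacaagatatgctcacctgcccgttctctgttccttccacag
TNS1 window B: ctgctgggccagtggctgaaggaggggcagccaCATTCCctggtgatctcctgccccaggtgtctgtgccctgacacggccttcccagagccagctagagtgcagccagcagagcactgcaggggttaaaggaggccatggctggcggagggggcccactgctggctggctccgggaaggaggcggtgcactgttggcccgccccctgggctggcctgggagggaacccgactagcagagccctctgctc

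Over the adhesion core, 32 of 45 genes were matched to 58 such windows. GGAATG was found in 7 of the 58 windows (12.1%), belonging to ITGA10, ITGA5, ITGB1, PXN, TNS1 and VCL, against 11.9% of all 35116 windows of the same length. TGANTCA was found in 3 windows (5.17%), of BCAR1, FERMT3 and LIMS1, against 6.57% of all windows. Both shares lay close to those of the whole set. These matches describe letters and do not show binding.

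**Figure D3:**
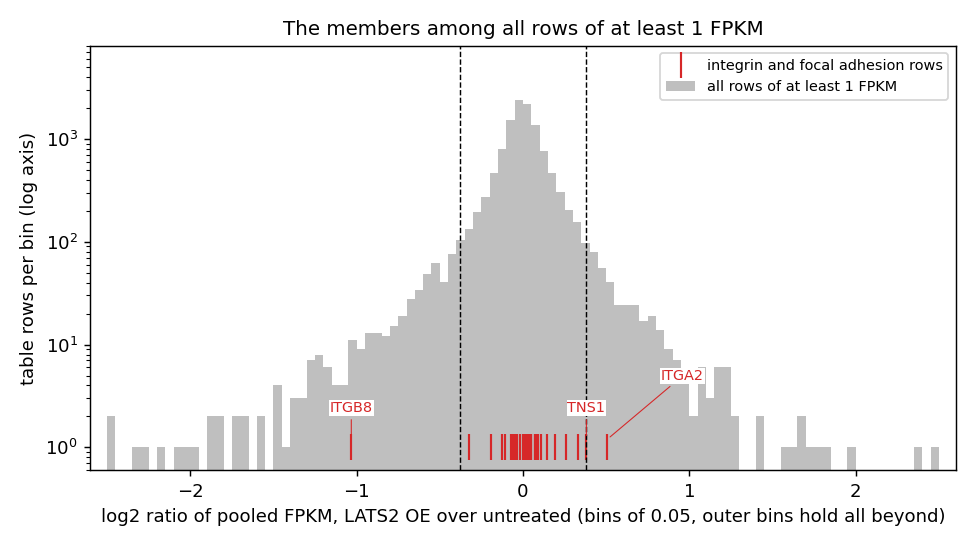
Number of table rows (vertical, log axis) by log2 ratio of LATS2 OE over untreated cells in bins of 0.05, for all 12218 rows of at least 1 FPKM in grey, with red ticks for the 34 rows of the adhesion core; dashed lines mark 1.3-fold. Apart from ITGB8 at -1.03 and ITGA2 at 0.51, with TNS1 on the upper line, the ticks lie between the dashed lines, with TNS3 at 0.33 and ITGA6 row 2 at -0.32 nearest to them.

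Proteins that join or regulate these complexes were examined as lists outside the name rule. Of 22 adhesion adaptors of at least 1 FPKM, 0 were higher and 1 was lower by 1.3-fold, which was NEDD9, a docking protein of the p130Cas family (log2 ratio -0.44). The median log2 ratio of the adaptors was -0.03. Of 32 kinases, GTPases and regulators, 0 were higher and 2 were lower past that threshold. These were ASAP1, an Arf GTPase-activating protein of focal adhesions (log2 ratio -0.52), and APBB1IP, a Rap1 effector that recruits talin (log2 ratio -0.38). The median of the regulators was 0.03, and SRC, RHOA and RAC1 had log2 ratios of 0.24, 0.03 and 0.04. Over all rows, 7.20% passed 1.3-fold in either direction, and these few genes are read as no result about the lists.

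The matrix ligands of integrins held larger single differences. Of 25 ligands of at least 1 FPKM, 1 was higher and 2 were lower by 1.3-fold, against 3.29% higher and 3.91% lower of all rows, and the median log2 ratio was 0.02. TNC, which encodes the matrix protein tenascin C, was 1.82-fold higher in LATS2 OE cells (log2 ratio 0.86). CTGF and CYR61, matricellular ligands of several integrins, were lower with log2 ratios of -2.34 and -1.35, and both are also on the list of YAP/TAZ targets. FN1, the ligand of ITGA5, had a log2 ratio of 0.16, and TGFB1, whose latent form the integrin of alpha V and beta 8 binds, had one of 0.21. The laminin genes LAMB3 and LAMA3 had log2 ratios of 0.34 and 0.31, below the threshold. THBS1 was 1 of 6 rows that the table listed at 0 because of too many reads, and it has no ratio here.

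**Figure D4:**
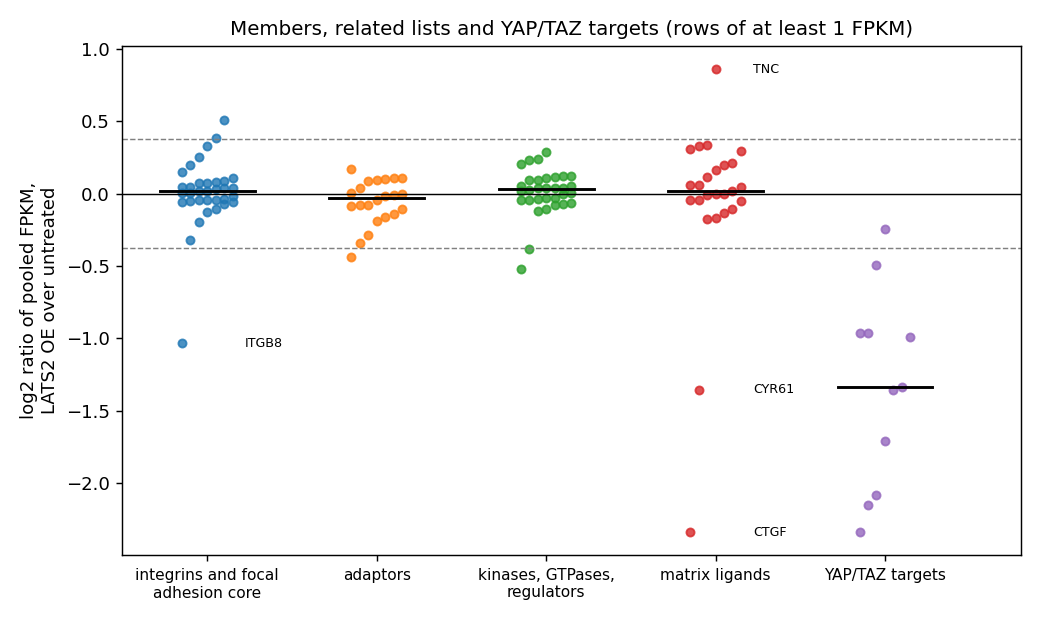
Log2 ratio of LATS2 OE over untreated cells (vertical axis) for rows of at least 1 FPKM in the adhesion core, the lists of adaptors, of kinases, GTPases and regulators and of matrix ligands, and the YAP/TAZ targets, 1 point per row; black bars are medians and dashed lines mark 1.3-fold. The medians of the first 4 groups lie between -0.03 and 0.03, and that of the 11 YAP/TAZ targets at -1.34; CTGF and CYR61 appear in both of the last groups.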

How the data were processed

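RNA of 4 LATS2 OE and 4 untreated AB8/13 samples was sequenced after poly(A) selection with a kit that does not mark strand. Per the labels, the submitters' processing notes name bcl2fastq, FastQC, Trimmomatic (version 0.33), TopHat, Cufflinks and the build hg19; no source used here gives the other versions or the annotation of genes. The authors deposited 1 gene table with 1 pooled FPKM value per group, so no replicate spread, test or leave-one-out value could be had.

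The table also holds the authors' own comparison (log2 ratio, test statistic, p, q and significance). Its test statistic, p, q and significance are not reported here. The log2 ratio column was read for 1 purpose. In FPKM cells of at least 1 with 3 or more decimals the point had been displaced, and the power of 10 was chosen as the one for which the ratio of both FPKM values met that cell within 0.002. The ratios given for the 12212 rows settled in this way therefore match the authors' log2 ratio within that tolerance. The plan made earlier had been to leave that column unread and to take the possible ratio nearest to 1. That rule gave another ratio in 27 of 12212 rows, those with large differences, and in 0 of the 34 rows of the adhesion core. LATS2 had 5 possible ratios without the column. The values of some marker genes are not reported here. A status column was read to find the 6 rows with too many reads.

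Ratios are LATS2 OE over untreated, without a pseudocount, among rows of at least 1 FPKM in both groups. Every member above that level is named with its ratio, every other with both FPKM values, and from each other list at most 6 genes past 1.5-fold. AXL, the marker genes, NEDD9, ASAP1 and APBB1IP, the laminin genes, FN1, TGFB1, THBS1, SRC, RHOA and RAC1 were outside that rule and were named after their values were seen. The rule for members contains no measured value, but the gene group, the lists and the thresholds were chosen with earlier results of these data known. Gene spans came from GENCODE 44 (lifted to hg19) and windows of 250 bases from RefSeq (GRCh38.p14). Windows were matched by gene symbol without converting coordinates, so all or part of a window can lie inside the GENCODE span of its gene. The placing of the point was tested on simulated data. Python 3.11.15, pandas 2.3.3, numpy 2.4.6 and matplotlib 3.10.9 were used. Alternatives were thresholds of 1.2-, 1.4-, 1.5- and 2-fold, no filter on low values, centring, rows with 1 name, a pseudocount of 0.1 FPKM and the ratio nearest to 1.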

Additional observations from a re-analysis of the deposited data

How the results depend on the processing

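The count of members past 1.3-fold depended on the threshold and on the filter. It was 3 of 34 at 1.3-fold, 5 at 1.2-fold (with TNS3 and ITGA6 row 2, against 12.8% of all rows), 2 at 1.4-fold (without TNS1, against 4.70%), 1 at 1.5-fold (ITGB8, against 3.17%) and 1 at 2-fold (ITGB8, against 0.892%). Without a filter on low values it was 8 of 45 rows, against 24.4% of all rows above 0 in both groups, and the median log2 ratio of the members was 0.038945 in place of 0.018056. The added members, FERMT3, ITGAL, ITGAM, PARVG and ITGA9, were all below 1 FPKM. Centring on the median of all rows, leaving out the row with several names, and placing the decimal point at the ratio nearest to 1 (chosen after seeing the data, as was 1.4-fold) left the count at 3. Among all rows the last of these gave 408 higher and 472 lower in place of 402 and 478. At 1.2- and 1.5-fold the adaptors past the threshold numbered 3 and 0, the regulators 3 and 0, and the ligands 7 and 3. A pseudocount of 0.1 FPKM was applied where levels were settled. With the filter the count of 3 of 34 rows could not change, since TNS3, already below the threshold, was the only such row. Without the filter, an alternative chosen after seeing the data, the pseudocount gave 3 of 45 rows in place of 8, since the added members no longer passed 1.3-fold. The share of all rows at that setting was not computed, so this count has no background beside it. No paired analysis was possible because each group was deposited as 1 pooled value, and for the same reason no replicate could be left out. The unknown depth limits the values below 1 FPKM most.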

Other observations

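The surroundings of the members past 1.3-fold were described within 500 kb of each table locus. Of the named genes near ITGA2, 4 reached 1 FPKM in both groups, with log2 ratios from -0.08 to 0.04, and MOCS2 and ITGA1 were among them. FST, which encodes the activin antagonist follistatin, was below 1 FPKM with 0.353 FPKM in LATS2 OE and 0.706 FPKM in untreated cells. Near TNS1, 6 named genes reached 1 FPKM, among them ARPC2, a subunit of the Arp2/3 complex, with log2 ratios from -0.07 to 0.15. A short row without a gene name, 250.8 kb from TNS1, was 1.61-fold higher in LATS2 OE cells (log2 ratio 0.69). It lay at chr2:219081485-219081733 (hg19), directly before the ARPC2 locus, which starts at 219081817. Near ITGB8 no named gene reached 1 FPKM in both groups, and the neighbour MACC1 had 0.0423 FPKM in LATS2 OE and 0.0663 FPKM in untreated cells. These values are given as a description, with no test.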
